A study of Mus musculus with 8 samples.

Results

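The TNF receptor complex is described here by 10 genes, chosen by name for the role of their products directly at the receptor: the receptors Tnfrsf1a and Tnfrsf1b, the adaptor Tradd, the kinases Ripk1 and Map3k7, the adaptors Traf1, Traf2 and Traf3, and the ubiquitin ligases Birc2 and Birc3. All 10 were found among the 54446 genes of the deposited count table, under the symbols of the deposited TPM table (length-scaled transcript levels) too, and all 10 were among the 15613 genes tested. The rule names the genes and uses no measured value, though earlier results of these data were known when they were listed.

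TNF-α binds a receptor trimer whose intracellular death domain takes up TRADD and RIPK1, and TRADD in turn brings TRAF2 with the cellular inhibitors of apoptosis cIAP1 and cIAP2. Ubiquitin chains built by the inhibitors of apoptosis recruit the kinase TAK1, the product of Map3k7, and the IκB kinases, from which NF-κB and MAP kinase signalling follow. Where RIPK1 is not held in this complex it can enter a second one that starts apoptosis or necroptosis, an outcome for which hepatocytes deprived of NF-κB activity are known.

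RNA was measured by mRNA sequencing in Hepa1-6, an established mouse hepatoma line with strain C57BL/6 on its labels. The 4 groups held 2 libraries each: TMAO at 50 µM together with TNF-α at 50 ng/ml, TNF-α alone at 50 ng/ml, TMAO alone at 50 µM, and control cells labelled as untreated. Exposure lasted 24 h in the treated groups, and TMAO is trimethylamine N-oxide, a metabolite made in the liver from gut bacterial trimethylamine. The libraries are numbered 14 and 16 in every group, without a stated meaning, and the treatment tag of the combined group names TMAO at both concentrations where its title and the treatment protocol name TNF-α as the second agent. The labels do not say whether the 2 libraries of a group came from separate cultures, so the p-values rest on the spread among these 8 libraries alone, part or all of which may be technical.

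Library totals ran between 24736746 and 30488605 counts, which put 3 counts at 0.0984 to 0.121 CPM (counts divided by the library total and scaled to 1e6; the values given for genes are also scaled by TMM). The 2 TNF-α libraries stood further apart than any other pair: 32.8% of 12368 genes differed over 1.5-fold between them, against 1.80% for TMAO plus TNF-α, 1.84% for TMAO and 3.45% for control. Between them, short genes were higher in TNF-α 16 and long genes lower, with a median log2 difference (16 minus 14) of 0.49 in the 3093 genes with the shortest exons and -0.48 in the 3089 with the longest. The control pair leaned the same way to a smaller extent, with 0.13 and -0.12 in these genes for control 14 minus control 16. Of 6 hepatocyte markers Alb, Afp, Hnf4a and Fgb were present (Alb at 353 to 1223 CPM), and Apoa1 and Ttr stayed under 1 CPM in every library. The summed level of the 6 was 1127 to 1167 CPM with TMAO plus TNF-α, 1169 to 1375 with TNF-α, 2767 to 2814 with TMAO and 2957 to 3098 in control libraries. Of 5 macrophage markers Ptprc, Adgre1 and Tyrobp were under 1 CPM everywhere. Cd68 had 7.78 to 12.8 CPM and Csf1r 2.99 to 7.78 CPM, and the 5 summed to 12.4 to 17.2 CPM. All 4 endothelial and all 4 lymphocyte markers, and 3 of 5 fibroblast markers, were also under 1 CPM in every library. Of 4 genes listed as a check of exposure to TNF-α (Vcam1, Ccl2, Tnfaip3 and Nfkbia), all 4 were higher in each group given TNF-α, and they averaged 250 ± 9.71, 1031 ± 173, 227 ± 21.9 and 202 ± 28.2 CPM in the 4 libraries with TNF-α, against 56.0 ± 1.85, 173 ± 14.9, 68.8 ± 1.79 and 63.8 ± 5.45 CPM in the 4 without it (SD).

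Promoter windows are shown for Traf1 and Birc3, the members that changed most, and for Traf3 and Map3k7, the members whose window holds an NF-κB consensus, since NF-κB is the factor at the end of this pathway. Each runs 5′ to 3′ on the gene's strand over 250 bases before and 50 bases after the start site, from RefSeq on GRCm38.p6, and capitals mark the consensus match.
Traf1, chr2:34961723-34962022, minus strand: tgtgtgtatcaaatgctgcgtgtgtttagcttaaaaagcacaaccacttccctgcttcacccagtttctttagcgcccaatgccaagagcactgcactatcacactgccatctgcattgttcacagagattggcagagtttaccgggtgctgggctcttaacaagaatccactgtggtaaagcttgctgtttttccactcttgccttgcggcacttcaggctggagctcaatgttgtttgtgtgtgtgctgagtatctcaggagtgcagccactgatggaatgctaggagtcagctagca
Birc3, chr9:7873121-7873420, minus strand: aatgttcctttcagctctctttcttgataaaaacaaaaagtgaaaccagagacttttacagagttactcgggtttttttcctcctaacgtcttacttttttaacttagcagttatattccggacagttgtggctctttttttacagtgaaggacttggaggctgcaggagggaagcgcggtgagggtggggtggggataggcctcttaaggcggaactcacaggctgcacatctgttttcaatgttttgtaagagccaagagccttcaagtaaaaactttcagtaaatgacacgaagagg
Traf3, chr12:111166120-111166419, plus strand: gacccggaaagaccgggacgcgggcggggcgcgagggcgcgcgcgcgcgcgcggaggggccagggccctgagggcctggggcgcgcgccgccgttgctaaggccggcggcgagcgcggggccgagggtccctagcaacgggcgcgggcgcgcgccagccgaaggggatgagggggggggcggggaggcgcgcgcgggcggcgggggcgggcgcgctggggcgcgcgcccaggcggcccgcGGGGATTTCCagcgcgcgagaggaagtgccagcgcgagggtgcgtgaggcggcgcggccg
Map3k7, chr4:31963857-31964156, plus strand: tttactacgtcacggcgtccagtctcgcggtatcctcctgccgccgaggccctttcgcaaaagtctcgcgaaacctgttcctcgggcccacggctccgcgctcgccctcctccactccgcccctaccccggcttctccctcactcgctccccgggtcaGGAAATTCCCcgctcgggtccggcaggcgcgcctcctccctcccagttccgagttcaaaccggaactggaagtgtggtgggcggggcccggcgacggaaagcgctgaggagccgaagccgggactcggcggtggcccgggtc
The consensus was searched on both strands with its degenerate letters. It occurred in 4.51% of all 32851 promoter windows of this table. In Traf3 it began 10 bases before the start site as GGGGATTTCC on the gene's strand, and in Map3k7 92 bases before it as GGAAATTCCC, a match on the other strand. No window of Traf1, Birc3, Birc2, Tnfrsf1a, Tnfrsf1b, Traf2 or Ripk1 held it, for Tradd no window was used, and the motif TATAAA, found in 13.6% of all windows on either strand, occurred in none of the members' windows. The windows also differed in base composition, with 48.7% G and C in Traf1 and 43.0% in Birc3, against 84.0% in Traf3 and 69.0% in Map3k7. A match is a description of these letters only, and its absence says nothing of sites elsewhere.

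With TNF-α, the RNA of Traf1, Birc3, Tnfrsf1b and Birc2 was higher, and that of Tnfrsf1a, Tradd, Ripk1, Traf2, Traf3 and Map3k7 did not pass the test. Averaged over the presence of TMAO, Traf1 was 6.60-fold higher, Birc3 2.04-fold, Birc2 1.45-fold, and Tnfrsf1b had a log2 fold change of 0.58. Thus 4 of 10 members were called higher and 0 lower by edgeR's quasi-likelihood test at a Benjamini-Hochberg adjusted p under 0.05, where 9.20% of all tested genes were called in either direction and 5.35% higher. The median log2 fold change of the 10 members was 0.31, and that of all tested genes 0.00. The summed hepatocyte markers given above also moved with TNF-α, and their part in these changes was not tested. In bulk RNA, fewer cells with a transcript and less of it per cell cannot be told apart.

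**Figure D1:**
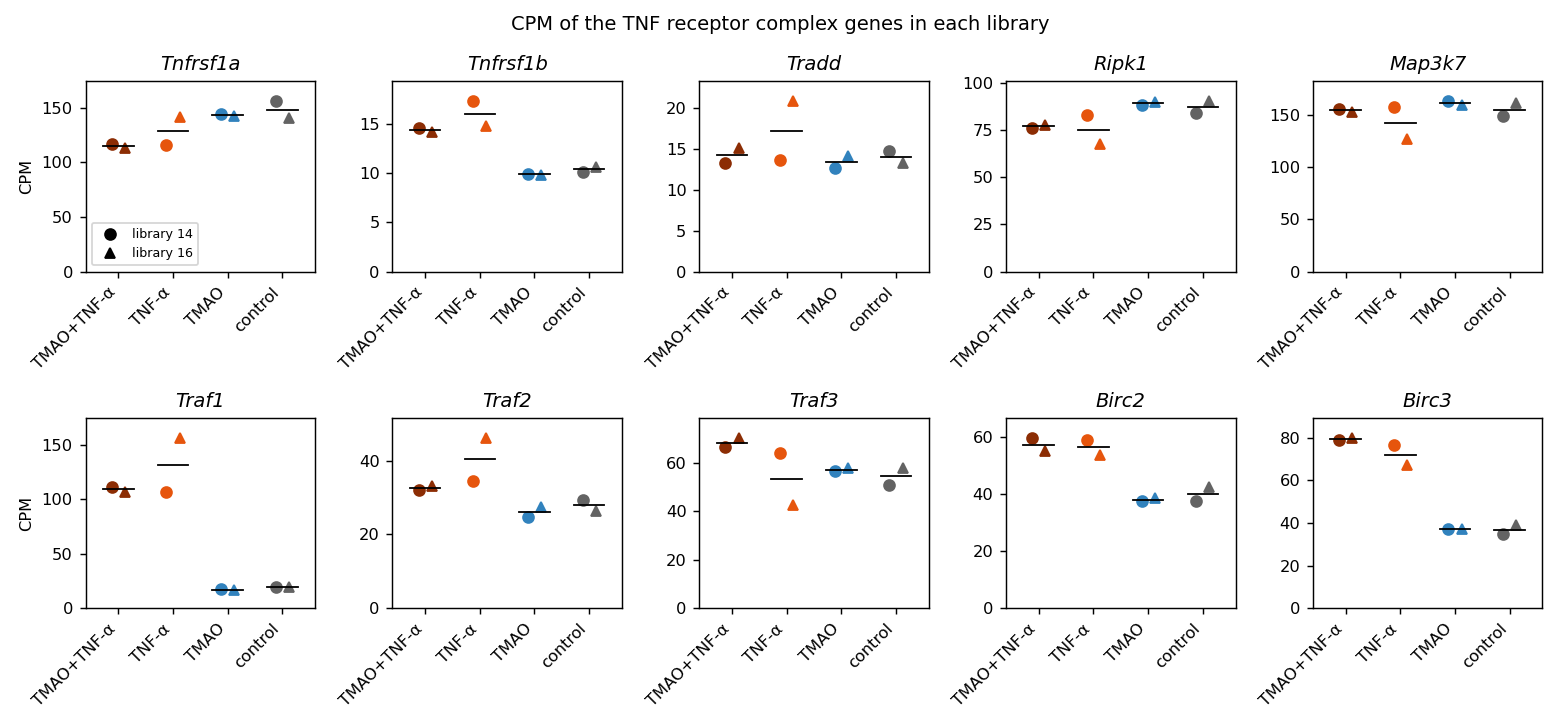
CPM of each of the 10 genes (vertical axes, each from 0) in the 8 libraries, by group from TMAO plus TNF-α to control. Circles are libraries numbered 14, triangles those numbered 16, and bars are group means. Traf1 lies between 107 and 156 CPM in the 4 libraries with TNF-α and between 16.5 and 19.5 CPM in the 4 without it, and the TNF-α pair has the largest spread for all 10 genes.

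Of the receptors, Tnfrsf1a encodes the widely expressed death domain receptor and Tnfrsf1b the second TNF receptor, which has no death domain and binds TRAF2. Tnfrsf1b (ENSMUSG00000028599.10) had 14.5 and 14.2 CPM in the TMAO plus TNF-α libraries, 17.2 and 14.8 CPM with TNF-α, 9.91 and 9.81 CPM with TMAO and 10.1 and 10.7 CPM in control libraries, numbers 14 and 16 in that order. All 4 libraries with TNF-α were above all 4 without it, which held for 9.81% of tested genes. Its log2 fold change averaged over TMAO was 0.58 ± 0.09 (SE, adjusted p = 0.00687 by edgeR). It was called with TNF-α against control (0.62 ± 0.12, adjusted p = 0.0393 by edgeR), and TMAO plus TNF-α against TMAO gave 0.54 ± 0.12 (adjusted p = 0.0680 by edgeR). The averaged call was lost, with an adjusted p of 0.0505 to 0.0565 in edgeR, without control 14, TMAO 14, TMAO 16 or TMAO plus TNF-α 14, and on the deposited TPM (0.132 and 0.134 by limma). The call against control was lost without any 1 of the control, TMAO or TMAO plus TNF-α libraries (adjusted p = 0.127 to 0.303 by edgeR).

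Tnfrsf1a (ENSMUSG00000030341.17) had 117 and 113 CPM with TMAO plus TNF-α, 116 and 141 CPM with TNF-α, 144 and 142 CPM with TMAO and 156 and 140 CPM in control libraries. TNF-α 16 reached the range of the libraries without TNF-α, and the other 3 libraries with TNF-α lay below it. The log2 fold change averaged over TMAO was -0.26 ± 0.09 (adjusted p = 0.139 by edgeR). With no replicate left in the TNF-α group, it was -0.34 without TNF-α 16 and -0.19 without TNF-α 14. For TMAO plus TNF-α against TMAO fitted on those 2 groups alone, edgeR called Tnfrsf1a lower (-0.30), beside 16.1% of genes called lower. Whether it passed thus depended on the libraries in the fit.

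Tnfrsf1a was by far the more abundant receptor RNA per length. In TPM it was listed at 115 and 174 with TMAO plus TNF-α, 113 and 112 with TNF-α, 139 and 143 with TMAO and 142 and 142 in control libraries, and Tnfrsf1b at 8.55 and 8.34 TPM with TMAO plus TNF-α, 9.37 and 6.52 with TNF-α, 5.50 and 5.64 with TMAO and 5.49 and 6.12 in control libraries. The ratio of Tnfrsf1b to Tnfrsf1a TPM averaged 0.0660 ± 0.0157 in the 4 libraries with TNF-α and 0.0401 ± 0.00207 in the 4 without it (SD). The ranges did not overlap, and the difference was 0.68 on the log2 scale. An exact two-sided permutation test over libraries gave p = 0.0286, the smallest the 70 splits allow, adjusted over 3 ratios to 0.0286. Tnfrsf1b TPM alone already separated the libraries with and without TNF-α, so the ratio is no separate support. How often ratios of other gene pairs separate so was not tested. The lowest ratio with TNF-α, 0.0480, was that of TMAO plus TNF-α 16. In that library Tnfrsf1a TPM per CPM was 1.54, against 0.789 to 1.01 in the others. Without any 1 of the 4 libraries lacking TNF-α (control 14, control 16, TMAO 14 or TMAO 16) the exact permutation p was 0.0571.

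Tradd (ENSMUSG00000031887.13), the death domain adaptor, had 13.3 and 15.1 CPM with TMAO plus TNF-α, 13.6 and 20.8 CPM with TNF-α, 12.6 and 14.1 CPM with TMAO and 14.8 and 13.3 CPM in control libraries. TNF-α 16 was well above the others, and TMAO plus TNF-α 16 slightly above the range without TNF-α. Averaged over TMAO, its log2 fold change was 0.19 ± 0.15 (adjusted p = 0.588 by edgeR). With no replicate left in the TNF-α group, it was 0.02 without TNF-α 16 and 0.33 without TNF-α 14.

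Ripk1 (ENSMUSG00000021408.15), the kinase that carries the ubiquitin chains and can also start cell death, had 75.9 and 77.8 CPM with TMAO plus TNF-α, 82.8 and 67.4 CPM with TNF-α, 88.3 and 89.9 CPM with TMAO and 84.0 and 90.0 CPM in control libraries. All 4 libraries with TNF-α were below all 4 without it, which held for 10.2% of tested genes, but TNF-α 14 by little. In TPM the groups overlapped, at 14.9 to 30.8 with TNF-α and 28.1 to 30.2 without it, and TMAO plus TNF-α 16 was the highest of the 8. The averaged log2 fold change was -0.21 ± 0.09 (adjusted p = 0.215 by edgeR). It was -0.29 without TNF-α 14 and -0.14 without TNF-α 16, in fits with no replicate in the TNF-α group. On the 2 groups TMAO plus TNF-α and TMAO alone, edgeR called Ripk1 lower (-0.20), beside 16.1% of genes called lower. Over 241 bases its annotated exons overlap those of Serpinb6a on the opposite strand, which had 7958 to 11601 counts a library. The strand setting of the counting is unknown here, so reads of both genes there cannot be told apart.

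Map3k7 (ENSMUSG00000028284.13), which encodes TAK1, had 156 and 153 CPM with TMAO plus TNF-α, 158 and 127 CPM with TNF-α, 163 and 159 CPM with TMAO and 149 and 161 CPM in control libraries. All but TNF-α 16 lay between 149 and 163 CPM. Its averaged log2 fold change was -0.09 ± 0.09 with a 95% interval of -0.30 to 0.12 (adjusted p = 0.685 by edgeR). Without TNF-α 14 it was -0.17 and without TNF-α 16 it was -0.02, in fits with no replicate in the TNF-α group.

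Among the TRAFs, TRAF2 is the one that carries the cIAPs to the receptor, TRAF1 lacks the RING domain of the others and joins TRAF2 complexes, and TRAF3 restrains the alternative NF-κB arm by keeping the kinase NIK low. Traf1 (ENSMUSG00000026875.14) had 112 and 107 CPM with TMAO plus TNF-α, 107 and 156 CPM with TNF-α, 17.4 and 16.5 CPM with TMAO and 19.5 and 19.4 CPM in control libraries. The groups with and without TNF-α were far apart, and TNF-α 16 alone exceeded the other 3 libraries with TNF-α. Averaged over TMAO, Traf1 had a log2 fold change of 2.72 ± 0.13 (adjusted p = 9.00e-05 by edgeR), with 2.76 ± 0.18 for TNF-α against control and 2.69 ± 0.18 for TMAO plus TNF-α against TMAO (adjusted p = 0.000904 and 0.00105 by edgeR). It was called in all 18 other settings of the averaged comparison, with values of 2.09 to 2.85. TNF-α against control fitted on those 4 libraries alone gave an adjusted p of 0.0724 by edgeR.

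Traf2 (ENSMUSG00000026942.13) had 32.1 and 33.2 CPM with TMAO plus TNF-α, 34.5 and 46.1 CPM with TNF-α, 24.8 and 27.3 CPM with TMAO and 29.4 and 26.4 CPM in control libraries. All 4 libraries with TNF-α were above all 4 without it, as for 9.81% of tested genes. The averaged log2 fold change of 0.43 ± 0.11 missed the threshold (adjusted p = 0.0607 by edgeR). DESeq2 called it (0.43, adjusted p = 0.0170). So did edgeR with total-count scaling (0.44, adjusted p = 0.0417) and without a filter on low counts (0.43, adjusted p = 0.00976). Of 18 other settings of the averaged comparison, 6 called it. With no replicate left in the TNF-α group, edgeR gave 0.31 without TNF-α 16 and 0.53 without TNF-α 14.

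Traf3 (ENSMUSG00000021277.16) had 66.6 and 70.2 CPM with TMAO plus TNF-α, 64.0 and 42.6 CPM with TNF-α, 56.5 and 58.0 CPM with TMAO and 51.0 and 58.1 CPM in control libraries. TNF-α 16 was the lowest of the 8, and the other 3 libraries with TNF-α were the highest. The averaged log2 fold change was 0.11 ± 0.13 (adjusted p = 0.749 by edgeR). Its sign depended on the TNF-α libraries, being 0.24 without TNF-α 16 and -0.05 without TNF-α 14, in fits with no replicate in that group. Of the members it had the largest drop between the TNF-α libraries (-0.59 as log2, 16 minus 14), with an exon length of 7350 bases, and the largest gain was that of Tradd (0.61), the member with the shortest exons (1866 bases). Traf1, with the longest exons of the 10 (8819 bases), gained 0.55, opposite in sign to the median of the genes with the longest exons.

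The ratio of Traf1 to Traf2 was below 1 without TNF-α and above 1 with it. It averaged 1.59 ± 0.0755 in the 4 libraries with TNF-α and 0.458 ± 0.0542 in the 4 without it (TPM, SD), with ranges of 1.49 to 1.66 and 0.414 to 0.533. The log2 difference was 1.79 (exact two-sided permutation p = 0.0286, adjusted over 3 ratios 0.0286). This p is the smallest the 70 splits allow. Traf1 TPM alone already separated the libraries with and without TNF-α, so the ratio is no separate support. Without control 16 the exact permutation p adjusted over 3 ratios was 0.0571.

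The cIAPs encoded by Birc2 (cIAP1) and Birc3 (cIAP2) are the ubiquitin ligases of the complex and lie next to each other on mouse chromosome 9. Birc3 (ENSMUSG00000032000.17) had 78.7 and 79.7 CPM with TMAO plus TNF-α, 76.7 and 67.2 CPM with TNF-α, 37.3 and 37.0 CPM with TMAO and 34.7 and 39.1 CPM in control libraries. In CPM no library with TNF-α came near those without it. Of all tested genes, 9.81% had all 4 libraries with TNF-α above the 4 without it. In TPM, TNF-α 16 was listed at 39.8, nearer to the 28.4 to 32.8 of the libraries without TNF-α than TNF-α 14 at 67.3. Averaged over TMAO, Birc3 had a log2 fold change of 1.03 ± 0.08 (adjusted p = 0.000502 by edgeR), with 0.96 ± 0.11 for TNF-α against control and 1.09 ± 0.11 for TMAO plus TNF-α against TMAO (adjusted p = 0.00588 and 0.00375 by edgeR). It was called in all 18 other settings of the averaged comparison, with values of 0.92 to 1.08. Against control alone the call was lost without control 14 (adjusted p = 0.0946 by edgeR), without control 16 (0.0616), on those 4 libraries alone (0.180) and on TPM (0.213 and 0.218). Against TMAO the call was lost without any 1 of its 4 libraries (adjusted p = 0.0592 to 0.0769 by edgeR) and on TPM (0.115 and 0.123).

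Birc2 (ENSMUSG00000057367.12) had 59.7 and 55.1 CPM with TMAO plus TNF-α, 59.1 and 53.8 CPM with TNF-α, 37.6 and 38.6 CPM with TMAO and 37.7 and 42.7 CPM in control libraries. The ranges with and without TNF-α did not overlap in CPM, whereas in TPM they did, since TNF-α 16 was listed at 26.9 and control 16 at 28.6. In CPM, 9.81% of tested genes had all 4 libraries with TNF-α above the 4 without it. The averaged log2 fold change was 0.54 ± 0.08 (adjusted p = 0.00657 by edgeR). TMAO plus TNF-α against TMAO was called (0.59 ± 0.11, adjusted p = 0.0375 by edgeR) and TNF-α against control was not (0.49 ± 0.11, adjusted p = 0.0662 by edgeR). The call against TMAO was lost without any 1 of the TMAO plus TNF-α, TMAO or control libraries (adjusted p = 0.0880 to 0.322 by edgeR). The averaged call was lost without TMAO 14, TMAO 16 or TMAO plus TNF-α 14 (adjusted p = 0.0515 to 0.0550 by edgeR) and on TPM (0.207 and 0.214).

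In the deposited TPM, Birc3 exceeded Birc2 in all 8 libraries, by more with TNF-α. In CPM, which is not per length, Birc3 was above Birc2 in the 4 libraries with TNF-α and below it in the 4 without it, and its annotated exons are the longer (5009 against 4580 bases), so the order of the pair without TNF-α differed between the deposited tables. The TPM ratio of Birc3 to Birc2 was 1.68 ± 0.156 in the 4 libraries with TNF-α and 1.21 ± 0.124 in the 4 without it (SD), with ranges of 1.48 to 1.86 and 1.04 to 1.34. The log2 difference was 0.47 (exact two-sided permutation p = 0.0286, adjusted over 3 ratios 0.0286), and 0.49 with CPM in place of TPM. This p too is the smallest the 70 splits allow. Birc3 TPM alone already separated the libraries with and without TNF-α, so this ratio is no separate support either. Without control 16 the exact permutation p was 0.0571. Taken at every position, so that they overlap, 65 sequences of 50 bases were shared by the annotated transcripts of the pair. They were 1.28% of those in Birc3 and 1.42% of those in Birc2. Reads wholly within shared sequence cannot be told apart, and how many there were was not tested. No stretch of 50 bases was shared between Traf1 and Traf2, Traf3 and Traf2, or Tnfrsf1b and Tnfrsf1a.

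**Figure D2:**
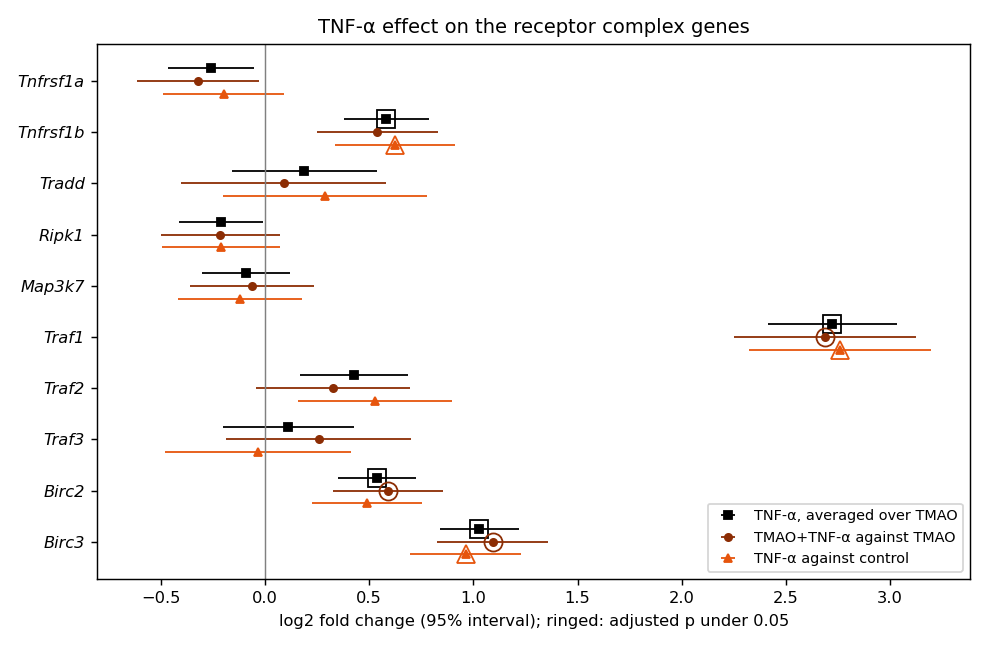
Log2 fold change with TNF-α (horizontal axis) of the 10 genes, with 95% intervals from edgeR's fit to all 8 libraries: squares are averaged over TMAO, circles TMAO plus TNF-α against TMAO, triangles TNF-α against control, and a ring marks an adjusted p under 0.05. Traf1 stands near 2.7 in each comparison, Birc3 near 1, and Birc2 and Tnfrsf1b near 0.5 to 0.6.

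Set in order of TPM, which is per length, the control libraries had Tnfrsf1a first at a mean of 142 TPM, then Map3k7 at 54.3, Birc3 at 29.0, Ripk1 at 28.5, Birc2 at 25.7, Traf2 at 24.7, Tradd at 17.8, Traf1 at 10.8, Traf3 at 9.50 and Tnfrsf1b at 5.80. Neighbours from Birc3 to Traf2 overlapped in their 2 libraries, as did Traf1 and Traf3. With TMAO plus TNF-α the order was Tnfrsf1a at 144 TPM, Birc3 at 67.2, Traf1 at 50.9, Map3k7 at 47.5, Birc2 at 37.6, Traf2 at 31.0, Ripk1 at 28.4, Tradd at 18.5, Traf3 at 14.3 and Tnfrsf1b at 8.45. There Map3k7, at 57.9 and 37.2 TPM in its 2 libraries, overlapped both Traf1 and Birc2, and Traf2 overlapped Ripk1. Traf1 thus had 7 members above it in control cells and 2 with both agents.

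The deposited TPM and counts did not move together for every member. Traf1 TPM per CPM was 0.446 and 0.488 with TMAO plus TNF-α, 0.438 and 0.336 with TNF-α, 0.551 and 0.803 with TMAO and 0.542 and 0.566 in control libraries, so that its log2 fold change averaged over TMAO was 2.09 on log2(TPM + 1) by limma and 2.72 on counts. For Tnfrsf1a the ratio was 1.54 in TMAO plus TNF-α 16 and between 0.789 and 1.01 in the other libraries. For Map3k7 it was 0.243 in TMAO plus TNF-α 16, 0.231 in TMAO 16 and 0.288 in TNF-α 16, and between 0.342 and 0.372 in the other libraries. The highest ratio over the lowest was 2.39 for Traf1, 1.95 for Tnfrsf1a, 1.80 for Ripk1, 1.71 for Traf3 and 1.61 for Map3k7, beside a median of 1.34 over 10016 genes, of which 24.9% exceeded 1.5.

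**Figure D3:**
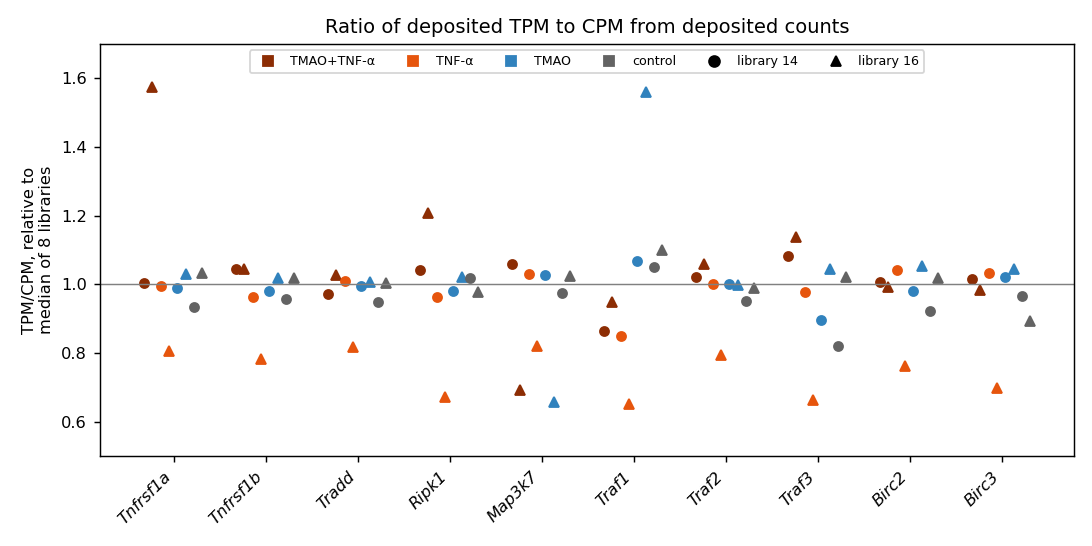
Deposited TPM divided by CPM from the deposited counts (vertical axis, relative to each gene's median over 8 libraries) for the 10 genes, with 1 point a library, coloured by group and shaped by number. TNF-α 16 is the lowest for 9 of the 10 genes, and single libraries stand out for Tnfrsf1a, Traf1 and Map3k7.

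In pairs of groups, 3 members were called with TNF-α against control (Traf1, Birc3 and Tnfrsf1b, beside 4.05% of all tested genes called and 2.38% called higher), 3 with TMAO plus TNF-α against TMAO (Traf1, Birc3 and Birc2, beside 3.64% and 2.16%) and 2 with TMAO plus TNF-α against control (Traf1 at 2.49 and Birc3 at 1.10, beside 3.49% and 2.01%), all higher, by edgeR. These comparisons share libraries. How many members were called depended on which libraries entered the fit. By edgeR, the averaged comparison called fewer members without control 14, TMAO 14, TMAO 16 or TMAO plus TNF-α 14. TNF-α against control and TMAO plus TNF-α against TMAO did so without any 1 of the control, TMAO or TMAO plus TNF-α libraries. TMAO plus TNF-α against control lost Birc3 without control 14, TMAO plus TNF-α 14 or TMAO plus TNF-α 16. Each of these fits left a group without a replicate and called fewer genes over the whole table too. Fitted on its 4 libraries alone, TMAO plus TNF-α against TMAO called 8 of 10 members by edgeR (6 higher, with Traf2 at 0.34 and Traf3 at 0.27 besides the 4 above, and Tnfrsf1a at -0.30 and Ripk1 at -0.20 lower), beside 31.9% of 14950 genes (15.9% higher and 16.1% lower). TNF-α against control on its own 4 libraries called 0 members and 1 of 14876 genes (0.00672%). The averaged comparison called 8 members without TNF-α 16 (beside 25.0%) and 9 without TNF-α 14 (beside 45.6%).

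TMAO changed none of the 10 genes past the threshold, with or without TNF-α. For TMAO against control the log2 fold changes ran from -0.20 for Traf1 to 0.07 for Traf3, for TMAO plus TNF-α against TNF-α from -0.30 for Traf2 to 0.36 for Traf3, and for the interaction from -0.20 for Traf2 to 0.29 for Traf3. In each of the 3, edgeR called 0 of the 10 members and 0% of all genes at an adjusted p under 0.05, 0 members had an unadjusted p under 0.05 (184, 549 and 184 of all genes did), and DESeq2 called 0 members, with 4, 0 and 0 genes in all. Intervals were wide: the 95% interval of Traf1 was -0.62 to 0.22 for TMAO against control and -0.67 to 0.14 for TMAO plus TNF-α against TNF-α, and that of Birc3 was -0.26 to 0.27 and -0.12 to 0.40. Without TNF-α 14, TMAO plus TNF-α against TNF-α called 8 members by edgeR (Traf3 at 0.71, Map3k7 at 0.30, Birc3 at 0.26 and Ripk1 at 0.21 higher, and Tradd at -0.52, Traf1 at -0.49, Traf2 at -0.47 and Tnfrsf1a at -0.28 lower), beside 49.4% of all genes (25.8% higher and 23.7% lower), and the interaction called 5 members, beside 35.5%. Without TNF-α 16 it called 0 members.

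**Figure D4:**
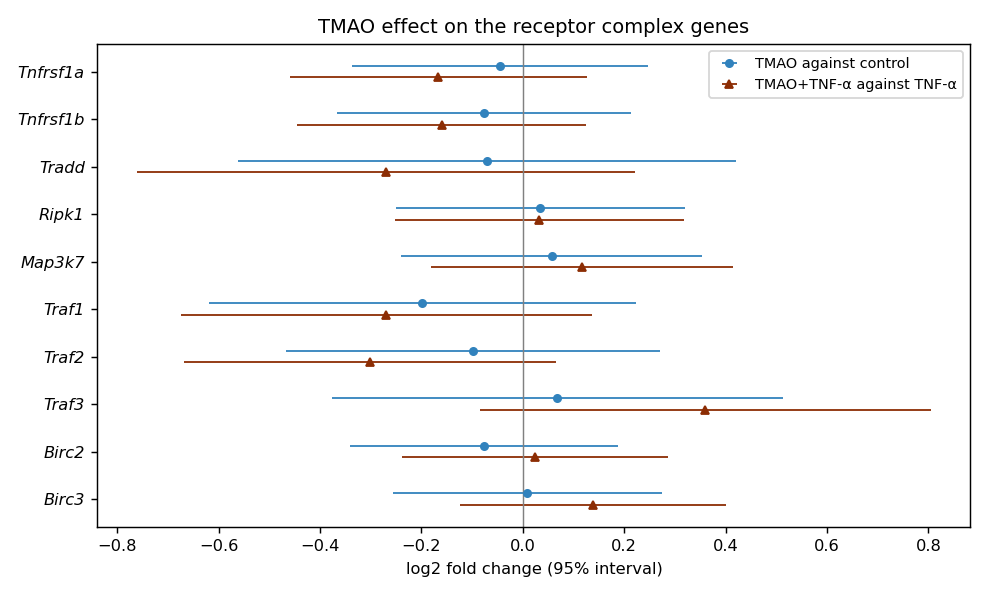
Log2 fold change with TMAO (horizontal axis) of the 10 genes, with 95% intervals from edgeR's fit to all 8 libraries: circles are TMAO against control and triangles TMAO plus TNF-α against TNF-α. Every interval spans 0, and the values lie between -0.30 and 0.36.

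Genes that act around the complex were grouped by role, with counts for TNF-α averaged over TMAO by edgeR. In that comparison 9.20% of all tested genes were called in either direction and 5.35% higher. Of the ligands and shedding genes, Ltb, which encodes the membrane anchor of lymphotoxin, was higher (68.1 ± 23.5 CPM with TNF-α and 15.2 ± 2.47 CPM without it, log2 2.15 ± 0.18), Adam17 (0.17 ± 0.10), the sheddase of TNF and its receptors, and Rhbdf2 did not pass, and Tnf and Lta were too low to test. The list thus had 1 of 3 tested genes higher. Of 13 other receptors tested, 3 were higher and 2 lower. Tnfrsf9 (4-1BB) gained 1.87 ± 0.15 on the log2 scale, Cd40 1.46 ± 0.14 and Fas, a death receptor, 1.31 ± 0.11, while the orphan receptor Tnfrsf19 had -1.26 ± 0.09 and the death domain receptor Tnfrsf21 -0.51 ± 0.08. Tnfrsf9 averaged 6.72 ± 0.936 CPM with TNF-α and 1.86 ± 0.463 CPM without it, and Fas 48.3 ± 8.51 CPM with TNF-α and 19.4 ± 1.59 CPM without it (SD, n = 4 each).

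Of 10 other TRAF and IAP genes tested, 0 were higher and 1 was lower, Traf5 (1.99 ± 0.424 CPM with TNF-α and 3.25 ± 0.323 CPM without it, log2 -0.72 ± 0.16, adjusted p = 0.0357 by edgeR). Traf4, at 225 ± 36.0 CPM with TNF-α and 203 ± 11.5 CPM without it, did not pass. Beside this list and those below stand the 9.20% of all tested genes called in either direction and 5.35% called higher. Of the 21 genes of the ubiquitin machinery and the TAK1 and IKK partners, 3 were higher and 1 lower: the IKK-related kinase Ikbke by 1.47 ± 0.09, its scaffold Tank, which binds TRAFs, by 0.63 ± 0.11, the IκB kinase subunit Ikbkb by 0.47 ± 0.08, and Optn, a ubiquitin-binding protein, at -0.48 ± 0.07. Their median log2 fold change was -0.00. In the death-inducing complex II, 1 of 6 tested genes was higher, Htra2, a mitochondrial protease that antagonises IAPs (0.44 ± 0.10, adjusted p = 0.0348 by edgeR), Mlkl, the effector of necroptosis, had 0.28 ± 0.07 (adjusted p = 0.0680 by edgeR), and Ripk3 was too low to test. Of 11 genes of the MAP kinase branch and the alternative NF-κB arm, 3 were higher: Relb by 1.43 ± 0.11 and Nfkb2 by 0.57 ± 0.08, the transcription factors of that arm, and Map2k6, a p38 kinase kinase, by 0.88 ± 0.07, while the list's median was -0.10. Of these calls, those of Htra2, Ikbkb, Tank, Optn, Tnfrsf21 and Traf5 were lost in at least 1 setting that left out a library, and those of Ltb, Tnfrsf9, Cd40, Fas, Tnfrsf19, Ikbke, Relb, Nfkb2 and Map2k6 were kept in all 18 other settings. Tnfaip3, of the exposure check, was not called on TPM (adjusted p up to 0.348 by limma).

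**Figure D5:**
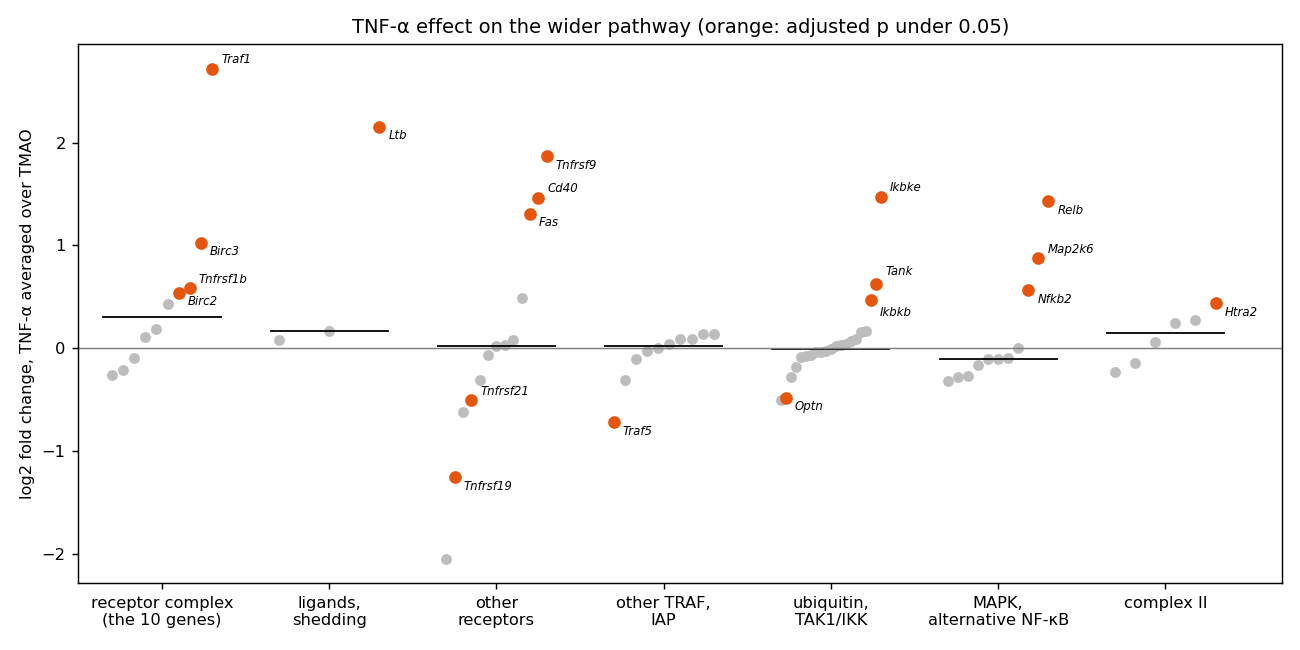
Log2 fold change with TNF-α averaged over TMAO (vertical axis) of the 10 receptor complex genes and of 6 lists of genes around them. Each point is a tested gene, orange where the adjusted p by edgeR was under 0.05, and bars are list medians. Traf1 has the highest value at 2.72, followed by Ltb at 2.15.

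By the root mean square difference of gene-centred log2 CPM over the 8 libraries, the genes with patterns most like the 4 called members were listed as a description. For Traf1 they were Ccl2 (0.11), Pdgfrl (0.13) and Madcam1 (0.13), with Ccl2 at 1031 CPM and Madcam1 at 86.1 CPM on average with TNF-α, against 173 and 14.6 CPM without it. For Birc3 they were Dcdc2a (0.07), Itgb3 (0.07) and Papss2 (0.08). For Birc2 they were Pvr (0.05), Mx2 (0.06) and Atrnl1 (0.06), and for Tnfrsf1b Pvr (0.06), Zswim4 (0.06) and Col6a1 (0.06), so Pvr headed both lists.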

How the data were processed

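Whole-number counts per Ensembl gene, and TPM values per gene symbol, were deposited by the authors for each library. The genome build was mm9 per the submitters' processing notes; for the aligner, annotation, strand setting and TPM program the sources used here name nothing. Of 54446 count identifiers, 53229 matched GENCODE M21 with their version and 54409 without it, which gave symbols and exon lengths. Promoters came from RefSeq (GRCm38.p6), another build than the mm9 that the submitters' notes name.

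Counts were tested with edgeR 4.0.16 in R 4.3.3 (filterByExpr, TMM, robust glmQLFit, 4 group means over 8 libraries, 4 residual degrees of freedom), adjusted by Benjamini-Hochberg over 15613 genes at 0.05, and checked with DESeq2 1.42.0 and limma 3.58.1. The programs were tested on simulated counts. Ratios of TPM used a pseudocount of 0.1 and exact permutation over libraries. Depth was 24736746 to 30488605 counts, and the limit of 3 counts covers counting error only. Named were all members, each called gene of the lists and the 2 of each list with the smallest p, and the 3 genes of most like pattern per called member. Members, lists and settings were chosen with earlier results of these data known. The settings tried were DESeq2, limma-voom, RLE or total-count scaling, other filters, the library number as a block, TPM, fits on 2 groups and left-out libraries. The numbers 14 and 16 have no stated meaning and did not pair libraries, so the fits have no block.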

Additional observations from a re-analysis of the deposited data

How the results depend on the processing

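Genes called over all tested genes were 633 for TNF-α against control, 569 for TMAO plus TNF-α against TMAO, 545 for TMAO plus TNF-α against control and 1437 for TNF-α averaged over TMAO, with 3, 3, 2 and 4 members. In that order DESeq2 called 960, 908 and 899 in the first 3, and edgeR without a filter on low counts 954, 898 and 895. On log2(TPM + 1) limma called 241, 288, 268 and 797, and on log2(TPM + 0.1) 210, 264, 250 and 760, with 1, 1, 1 and 2 members in each. Without both TNF-α 16 and control 14 the counts were 3273, 4832, 3703 and 5526, with 6, 8, 8 and 8 members. With only the 2 groups compared they were 1, 4775 and 2373, with 0, 8 and 6 members. For TMAO against control, DESeq2 called 4 genes, edgeR without a filter 2, without both of these libraries 48 and with only the 2 groups 3. For TMAO plus TNF-α against TNF-α, TPM gave 2 and 1 and leaving out these libraries 12, and for the interaction 1. Leaving out 1 library gave 92 to 7971, 71 to 2628, 90 to 3013 and 647 to 7444 genes, with 1 to 9, 1 to 8, 1 to 7 and 2 to 9 members. For TMAO against control it gave 0 to 9 genes and 0 members, for TMAO plus TNF-α against TNF-α 0 to 8068 and 0 to 8, and for the interaction 0 to 5788 and 0 to 5, the high ends being without TNF-α 14 in the last pair. The cause was not tested.

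With the library number as a replicate block, 342, 323 and 301 genes were called, and Tnfrsf1b lost its call with TNF-α against control (adjusted p = 0.0991 by edgeR) and Birc2 with TMAO plus TNF-α against TMAO (0.102); the other member calls of these comparisons and the 4 averaged ones were kept. Deviations of same-numbered libraries correlated at -0.64 between TNF-α and control and at -0.08 to 0.00 in the other pairs of groups. Within the block the ratios Traf1 to Traf2 (1.79), Birc3 to Birc2 (0.47) and Tnfrsf1b to Tnfrsf1a (0.68) had p = 0.0556, the smallest its 36 splits allow in an exact permutation test. Leaving out 1 library gave log2 differences of 1.74 to 1.86, 0.40 to 0.53 and 0.56 to 0.82. The adjusted p of all 3 ratios was 0.0571 without control 16, and that of Tnfrsf1b to Tnfrsf1a also without control 14, TMAO 14 or TMAO 16 (exact permutation tests).

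Of 1050 values of single genes, 890 kept their direction and side of the threshold, 92 lost a call, 60 gained one and 8 changed sign. They covered the members' TNF-α effects, a few other values of Traf1, Birc3 and Traf3, and averaged values of named genes around the complex. Most TMAO and interaction values of the members were left out, and signs changed there too. For TMAO plus TNF-α against TNF-α, Tnfrsf1a ran from -0.28 to 0.33 and Ripk1 from -0.11 to 0.52, while Traf2 stayed negative (-0.47 to -0.063). For the interaction, Tradd ran from -0.45 to 0.14. With TNF-α against control Traf3 gave 0.14 without both TNF-α 16 and control 14, and -0.37 to 0.23 when 1 library was left out, Map3k7 gave -0.30 to 0.025 and Tradd -0.049 to 0.56. Averaged over TMAO, Traf3 ran from -0.048 to 0.24. Traf1 with TMAO against control was 0.061 on log2(TPM + 1) and 0.065 on log2(TPM + 0.1). Members had 283 to 4804 counts in each library, far above 3, so depth was not what limited detection of their RNA.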
